A study of Canis lupus familiaris with 24 samples.

Results

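The genes described here are 36 markers of T cells, natural killer (NK) cells and B cells, taken as every array feature whose annotation gives exactly 1 of the 36 symbols. They had 58 probe sets on the array, where a probe set is a group of short probes for 1 transcript. Of these, 49 probe sets of 33 genes were called Present (detected above background) on at least 6 of 24 arrays and were tested, among 20034 tested probe sets in all. The other 9 had no Present call on any array. They include the single probe sets of ICOS, NKG7 and TRAT1, which are therefore not described further as genes. RefSeq's table of dog genes holds the symbols of 35 of the 36.

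The tissue came from 3 anaesthetised, ventilated mongrel dogs, and the 24 arrays are 8 pieces of lung per dog. In each dog the left lung was injured by 4 lavages with warm saline at 20 ml/kg, and the right lung was the control. Both lungs were ventilated for 5 h at 25 breaths/min under pentobarbital and pancuronium, and the control lung alone was given 5 cmH2O of positive end-expiratory pressure. "Injured" therefore stands for lavage, left side and absence of that pressure, which cannot be told apart. Pieces were taken at the apex and the base, each from the dependent part (lowest under gravity) and the nondependent part. A group is 1 lung, level and position, with 1 piece from each of 3 dogs. Dog RNA was hybridised to human probes, so levels are compared between arrays for the same probe set and never between genes.

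T cells recognise antigen through a receptor whose signal is carried inward by the CD3 chains, with CD4 or CD8 as coreceptor and the kinases LCK and ZAP70 as the first steps. NK cells and cytotoxic T cells kill with perforin and granzymes. B cells carry an antigen receptor that signals through CD79A and CD79B, and CD20 (MS4A1) and CD22 mark their surface. A healthy lung holds such cells in blood, airway wall and interstitium. In a piece of whole lung, fewer cells of a type and less RNA per cell cannot be told apart.

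Arrays had 60.78 to 82.32% of probe sets called Present, with 60.78 to 67.59% in dog 1, 72.83 to 82.32% in dog 2 and 70.63 to 81.81% in dog 3. The surfactant gene SFTPC, a marker of alveolar type 2 cells, was Present on 24 arrays (signal 964 to 4078). AGER of alveolar type 1 cells was Present on 23, and the leukocyte gene PTPRC on 23. In dog 3, 3 injured-lung arrays (both apex pieces and the base dependent piece) stood apart, with highest signals of at least 22155 against at most 20465 on other arrays. On them the 33 lymphocyte genes stood a median of 0.27 (log2) above the other 5 arrays of that dog, 25 of them higher, against a median of 0.12 for all tested probe sets. ZAP70 (1.11) and LAT (-0.58) were at the ends of that range.

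Transcripts of all 3 lineages were detected in lavaged and control lung alike. Of the 49 tested probe sets, 9 were Present on all 24 arrays and 15 on fewer than 18, with a median of 20 arrays against 21 for all tested probe sets. The plot of 6 lineage genes by array shows both lungs side by side.

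**Figure D1:**
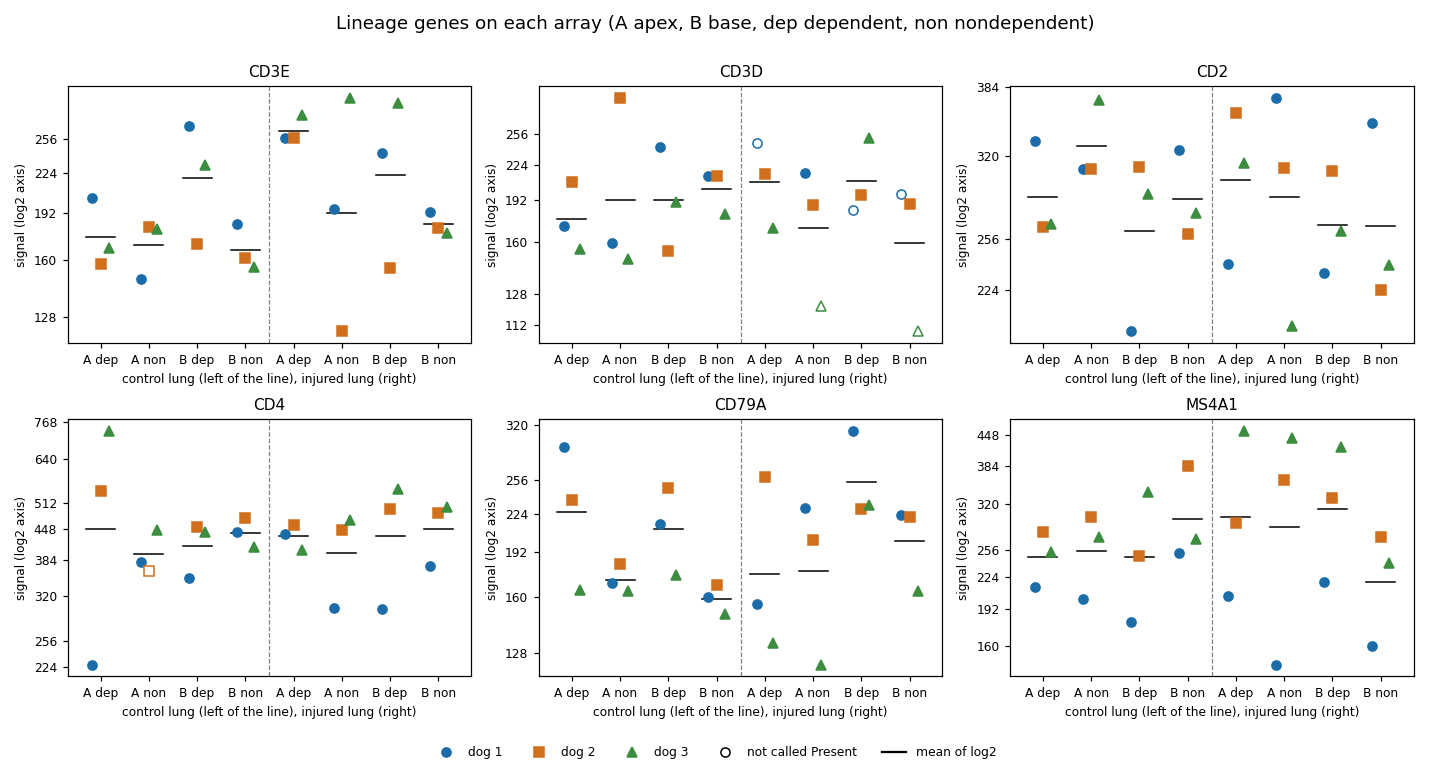
Deposited signal (log2 axis) of CD3E, CD3D, CD2, CD4, CD79A and MS4A1 on each of 24 arrays, by lung, level and position; each point is 1 piece of lung from 1 dog, an open point was not called Present, and the bar is the mean of the log2 values. Control and injured ranges overlap in every panel, and the 3 highest MS4A1 values, up to 456, are injured-lung pieces of dog 3, on the 3 arrays of that dog that stood apart.

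CD3E, a CD3 chain of the T cell receptor complex, was Present on all 24 arrays. Its signal ran from 148 to 269 (median 175) in the control lung and from 121 to 300 (median 218) in the injured lung. The ranges overlapped widely, and the lowest and the highest value of the gene were both in the injured lung. CD3D, another chain of the complex, ran from 149 to 299 in the control lung and from 109 to 251 in the injured lung. It was Present on 12 of 12 control arrays and on 7 of 12 injured arrays, although its mean log2 signal of 7.57 ± 0.17 (SD over 3 dogs) was close to the 7.53 ± 0.23 of the injured lung. CD3G, the third chain measured, ran from 71.1 to 148 and from 87.8 to 171. TRBC1, a constant part of the receptor beta chain with a near-identical copy that the same probes may read, was Present on 24 arrays at 210 to 569 in the control and 243 to 411 in the injured lung. CD4, the coreceptor of helper T cells, which dog neutrophils also carry, was at 227 to 735 and 300 to 549.

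Detection of the kinases and adaptors below the receptor varied. LCK, the kinase bound to CD4 and CD8, was Present on 8 of 12 control and 4 of 12 injured arrays, with signals of 37.0 to 222 and 43.7 to 360. ZAP70, the kinase that binds the phosphorylated CD3 complex, was Present on 13 arrays, and LAT, the membrane scaffold it phosphorylates, on 19. For LCK the spread between dogs (SD 0.77 in each lung) was far larger than the difference of 0.00 between the lungs. SH2D1A, an adaptor of SLAM family receptors in T and NK cells, was Present on 24 arrays with its brightest probe set.

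Among adhesion and costimulatory molecules, CD2 varied least between arrays, with a highest signal 1.86-fold above the lowest over 24 arrays (200.5 to 373). CD5, a negative regulator of receptor signalling, was Present on 21 arrays. The activation antigen CD69 was Present on 18 arrays and ran from 6.5, on an array called Absent, to 94.3. For IL7R, the receptor of the survival cytokine IL-7, signals were 36.9 to 159 in the control and 35.8 to 114 in the injured lung. CCR7, the receptor that guides cells to lymph nodes, was at 37.5 to 112 and 56.2 to 124.

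Of the cytotoxic genes, granzyme B (GZMB) was Present on 11 of 12 control arrays and 6 of 12 injured arrays, with signals of 17.7 to 54.9 and 26.9 to 73.9. Granzyme A (GZMA) was Present on 9 control and 11 injured arrays. KLRB1, the NK and T cell lectin receptor CD161, ran from 27.8 to 160 in the control and 42.8 to 170 in the injured lung. In the B lineage, CD79A, MS4A1 and CD22 were Present on all 24 arrays with their brightest probe sets. The further tested probe sets of CD22 were Present on 13 and 15 arrays. Their correlations with the brightest one within dogs were -0.245 and 0.003. CD79A ran from 150 to 293 and from 122 to 312, and MS4A1 from 180 to 385 and from 147 to 456.

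**Figure D2:**
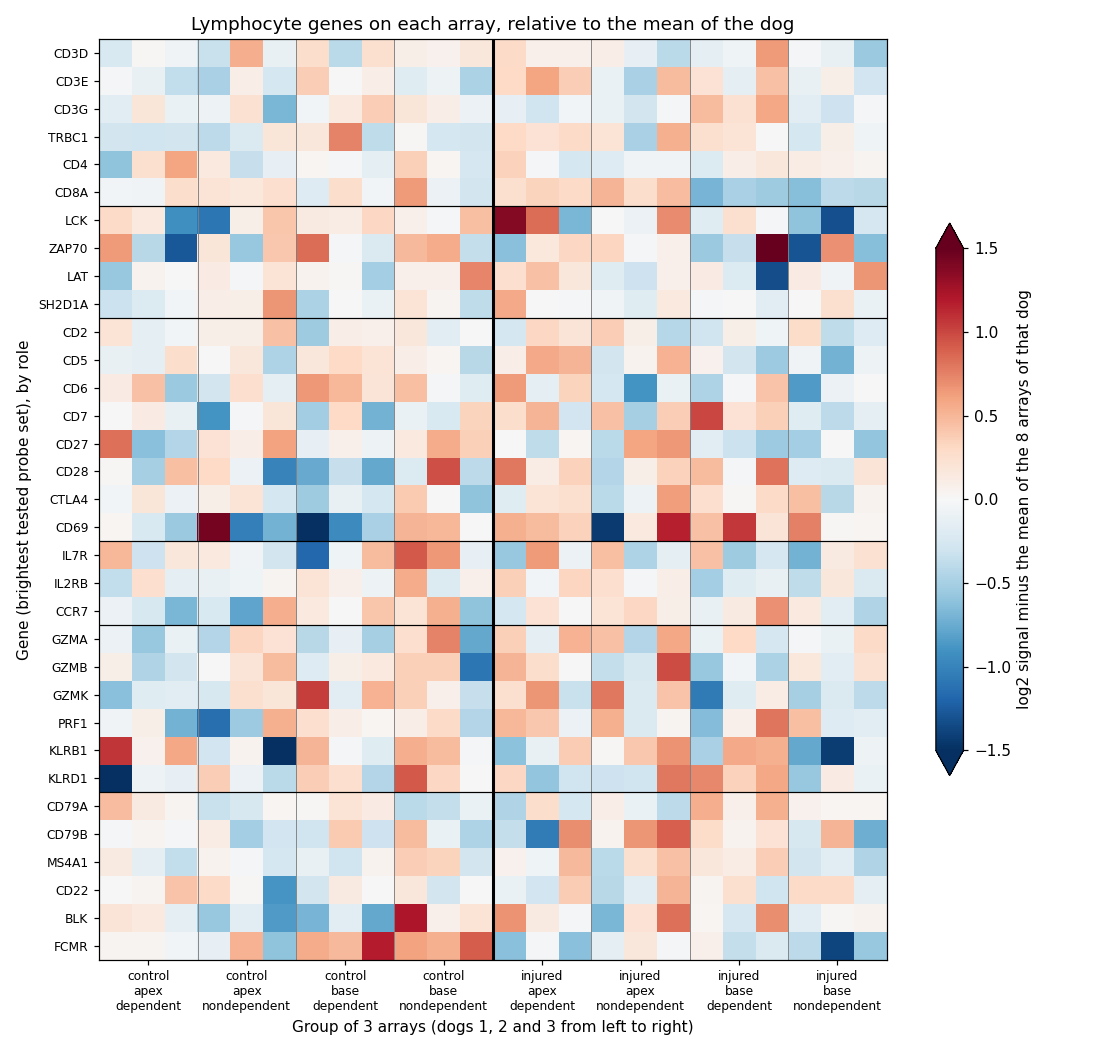
Log2 signal of the 33 genes on each array minus the mean of the 8 arrays of the same dog (colour, from -1.5 to 1.5), with genes by role in rows and the 24 arrays in columns, dogs 1, 2 and 3 from left to right in each group. No block of genes stands out across a whole lung; the FCMR row is blue in the injured base nondependent group, darkest in dog 2, and the CD8A row is blue in all 6 injured base pieces.

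Injured and control lung were first compared as the mean of their 4 sites, to ask whether lavage moved lymphocyte transcripts as a whole. None of the 49 probe sets passed limma's test at an adjusted p of 0.05, where 0.21% of all tested probe sets did. At an unadjusted p under 0.05 there were 4 (8.163%), against 9.708% of all probe sets. The changes were small: 32 were higher and 17 lower in the injured lung, with a median of 0.07 on the log2 scale against 0.03 for all probe sets, and a range from -0.68 to 0.62. By gene, 19 were higher and 14 lower with a median of 0.05. The median standard error was 0.17.

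**Figure D3:**
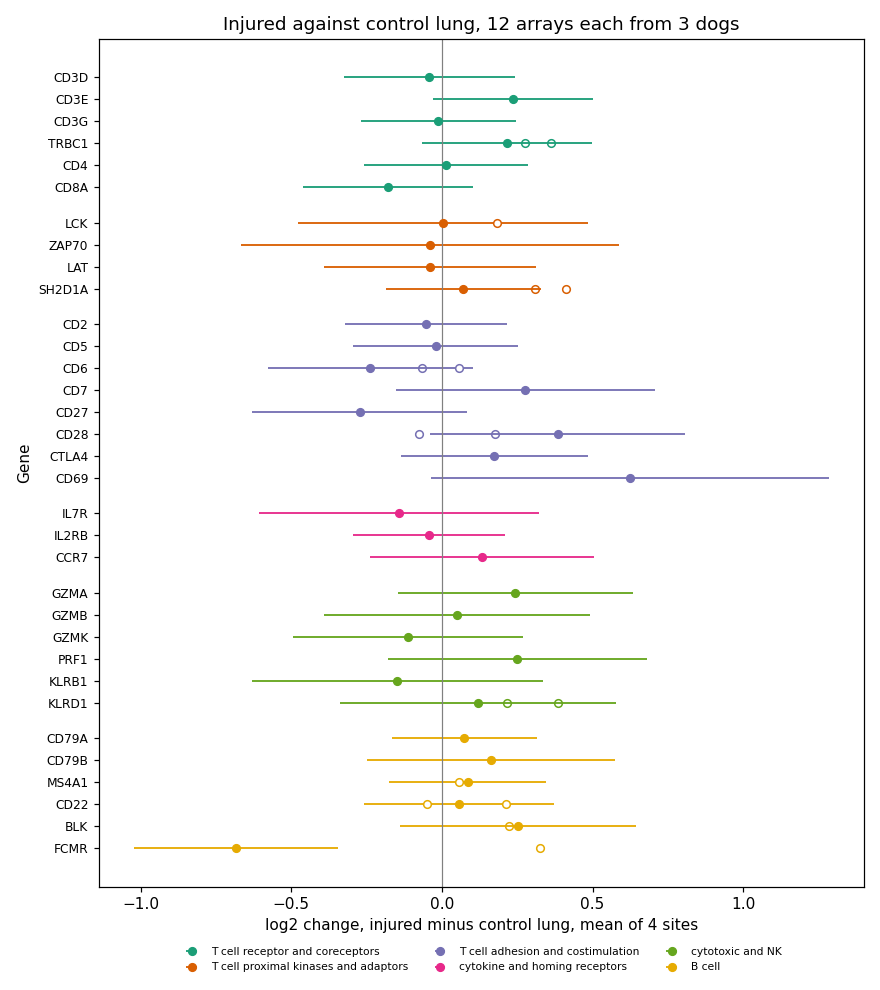
Log2 difference between injured and control lung, mean of 4 sites (12 arrays per lung from 3 dogs), for the 33 genes by role; filled points with bars are the brightest probe set with its 95% confidence interval without adjustment, and open points are further tested probe sets. All intervals but that of FCMR (-1.02 to -0.35) include 0, and the open point of FCMR lies on the other side of 0.

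The T cell receptor genes and coreceptors were split, with 3 genes higher, 3 lower and a median of 0.00. CD3E was the highest of them, at 0.23 ± 0.13 (SE, adjusted p = 0.585, limma), with values of 0.16, 0.04 and 0.50 in dogs 1, 2 and 3. Without the 3 outlying arrays it was 0.09 ± 0.13. CD3D (-0.04 ± 0.14), CD3G (-0.01 ± 0.12) and CD4 (0.01 ± 0.13) had 95% intervals between -0.33 and 0.28. Kinases and adaptors were 2 higher and 2 lower with a range from -0.04 to 0.07.

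CD69, which T, B and NK cells put on their surface early in activation, had the largest positive difference of the 33 genes, 0.62 ± 0.32 (adjusted p = 0.551). In the control lung its signals in dogs 1, 2 and 3 were 32.3, 31.8 and 28.5 at the apex dependent site, 85.2, 18.4 and 25.6 at the apex nondependent site, 6.5, 19.3 and 29.9 at the base dependent site, and 45.0, 52.8 and 42.2 at the base nondependent site. In the injured lung they were 45.7, 51.9 and 53.3, then 11.7, 41.3 and 94.3, then 42.8, 77.6 and 47.7, and last 53.4, 37.9 and 42.8 at the same sites. The injured pieces lay above all control pieces at both dependent sites, and the values overlapped at both nondependent sites. At the base dependent site the difference was 1.80 ± 0.63 (adjusted p = 0.701), with 2.72, 2.01 and 0.67 in dogs 1, 2 and 3. The control signals of dogs 1 and 2 there were called Absent, at 6.5 and 19.3. The injury difference in dependent minus that in nondependent parts was 1.26 ± 0.63 (adjusted p = 0.851) and had opposite signs in dogs 1 (2.92) and 3 (-0.16). Within the control lung, dependent minus nondependent was -0.87 ± 0.45 (adjusted p = 0.99), of which dog 1 gave -2.10, dog 2 -0.33 and dog 3 -0.17.

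CD28, the main costimulatory receptor of T cells, stood at 0.38 ± 0.20 (adjusted p = 0.572). Its signals ran from 31.1 to 140 (median 53.4) in the control lung and from 40.8 to 110 (median 76.3) in the injured lung, and it was Present on 6 of 12 arrays in each. The lungs overlapped, except at the base dependent site, where injured pieces were at 76.9, 70.7 and 110 and control pieces at 32.8, 56.2 and 36.8. The difference was 0.32 in dog 1, -0.02 in dog 2 and 0.85 in dog 3, and further probe sets of the gene stood at 0.18 and -0.07. Without the outlying arrays of dog 3, CD28 stood at 0.25 ± 0.24, and CD69 at 0.48 ± 0.35.

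CD27, a TNF receptor family member on T and memory B cells, stood at -0.27 ± 0.17 (adjusted p = 0.657). Signals were 65.4 to 214 (median 128) in the control lung and 77.7 to 221 (median 98.5) in the injured lung. At the base dependent site injured pieces were at 101, 80.7 and 96.4 and control pieces at 104, 107 and 134. At the base nondependent site injured pieces were at 79.3, 100.5 and 93.3 and control pieces at 125, 149 and 180. CD27 was thus lower in every injured base piece than in any control piece of the same site, and its ranges overlapped at the apex.

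Cytotoxic genes were 4 higher and 2 lower, from -0.15 for KLRB1 to 0.25 for perforin (PRF1). The 3 receptors of cytokines and chemokines were 1 higher and 2 lower. Of the B cell genes, 5 of 6 were higher by 0.06 to 0.25, and FCMR was lower.

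FCMR, the receptor for the constant part of IgM that B cells carry in human and mouse, was the only lymphocyte gene called in any of the 13 comparisons. In the base nondependent part its signal was 55.4, 38.7 and 52.8 in the injured lung of dogs 1, 2 and 3, and 111, 145 and 147 in the control lung. All 3 injured pieces were therefore below all 3 control pieces. It fell by 1.46 ± 0.32 on the log2 scale (SE, limma adjusted p = 0.0499), by 1.00, 1.91 and 1.48 in dogs 1, 2 and 3. None of the 3 injured arrays and 3 of 3 control arrays had a Present call. The estimate corresponds to a 2.75-fold lower signal, with the injured signals not told from background. Calls did not follow signal alone. The probe set was Absent at 140.8 in the control base dependent piece of dog 2, and Present at 66.2 in the injured apex nondependent piece of dog 1. Of all tested probe sets, 0.404% were called at this site.

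**Figure D4:**
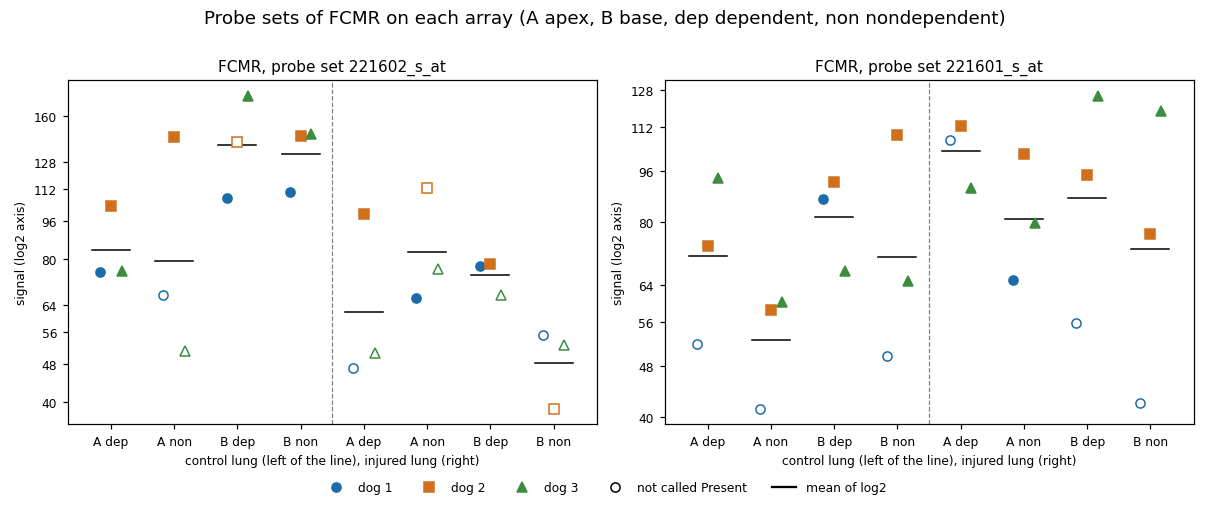
Signal (log2 axis) of both FCMR probe sets on each of 24 arrays by lung, level and position; an open point was not called Present and the bar is the mean of the log2 values. With the brighter probe set (left) the control base pieces, 108 to 177, lie above all injured base pieces, 38.7 to 78.2; with the second probe set (right) the lungs overlap at the base.

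At the other sites the FCMR difference was smaller. At the base dependent site injured pieces were at 77.1, 78.2 and 67.0 and control pieces at 108, 141 and 177, a difference of -0.91 ± 0.32 (adjusted p = 0.701). At the apex dependent site they were at 47.2, 99.4 and 50.7 against 75.0, 103 and 75.6, and at the apex nondependent site at 66.2, 113 and 76.2 against 67.1, 144 and 51.3. The apex differences were -0.43 ± 0.32 (adjusted p = 0.842) and 0.06 ± 0.32 (adjusted p = 0.998), so FCMR was not lower at the apex nondependent site. Base pieces did not overlap between the lungs and apex pieces did. The mean of 4 sites was -0.68 ± 0.16 (adjusted p = 0.0928), lower in 3 of 3 dogs. The injury difference at the base minus that at the apex was -0.40, -1.17 and -1.43 in dogs 1, 2 and 3 (SE of their mean 0.32, adjusted p = 0.416). In the control lung FCMR was higher at the base than at the apex by 0.74 ± 0.23 (adjusted p = 0.945), and over both lungs by 0.24 ± 0.16 (adjusted p = 0.875).

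The second tested FCMR probe set did not share this pattern. It was detected more often, on 18 of 24 arrays against 13 for the called probe set. The called one was brighter only by mean log2 signal (6.37 against 6.25), and its median signal was 76.65 against 78.05. In the base nondependent part it was at 42.1, 76.5 and 119 in the injured lung and 49.7, 109 and 64.9 in the control lung. Its difference there was 0.04 ± 0.32 (adjusted p = 0.991), and over the 4 sites 0.32 ± 0.16 (adjusted p = 0.538). Within dogs the 2 probe sets had a correlation of -0.18 over 24 arrays, given as a description.

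The FCMR call lies at the threshold. The adjusted p was 0.134 on per-dog means, 0.0936 after quantile normalization, 0.0639 without the filter on Present calls and 0.0537 without the 3 outlying arrays. It was 0.449, 0.705 and 0.154 when dog 1, 2 or 3 was left out, with log2 differences of -1.69, -1.24 and -1.45. Between injured and control base nondependent pieces, the log2 ratio of 3' over 5' GAPDH signal, a sign of RNA integrity, differed by 1.35, 0.41 and 0.09 in dogs 1, 2 and 3. With RNA quality as covariates the difference was -1.75 (adjusted p = 0.065). Summed signals of 16 other B and plasma cell genes were 3298 to 4012 in the control and 3319 to 3997 in the injured pieces, and those of 12 leukocyte genes 1602 to 1968 and 1557 to 2606, so both overlapped. Those of 9 alveolar type 2 genes were 3861 to 5295 and 2619 to 3659, without overlap, and their part in the FCMR result was not tested. No gene of these lists was at 0 on any array.

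Each of the other sites was compared in the same way, and none of the 49 probe sets was called. At the apex dependent site 0% of all probe sets were called. There 38 lymphocyte probe sets were higher and 11 lower in the injured lung, with a median of 0.27 against 0.09 for all probe sets (by gene 24 and 9, median 0.28), and 6 had an unadjusted p under 0.05 (12.245%, against 6.943% of all). CD3E had injured signals of 256, 256 and 280 and control signals of 203, 157 and 168, a difference of 0.59 ± 0.26 (adjusted p = 0.685). TRBC1 had injured signals of 411, 396 and 333 and control signals of 274, 275.5 and 225, a difference of 0.56 ± 0.27 (adjusted p = 0.723), with further probe sets at 0.70 and 0.03. Both were higher in 3 of 3 dogs without overlap.

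In all, 8 of the 49 probe sets (16.327%) did not overlap between the lungs at the apex dependent site, against 8.64% of all probe sets. All 8 were higher in the injured lung: CD3E, TRBC1, CD8A, CD69, GZMA, a dimmer probe set of KLRD1 and 2 dimmer probe sets of SH2D1A. The brightest probe set of KLRD1 overlapped, at 92.8, 41.8 and 71.5 in the injured and 21.2, 59.8 and 80.6 in the control lung, and so did that of SH2D1A. Here 1 of the 3 injured arrays, that of dog 3, is among the outlying arrays. Without those arrays the differences were 0.55 for CD3E and 0.52 for TRBC1. The receptor kinases and adaptors were higher in 4 of 4 genes (0.30 to 0.68), and the B cell genes in 2 of 6, with a median of -0.20.

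At the apex nondependent site 0% of all probe sets were called. The median was 0.12 against 0.03, with 36 probe sets higher and 13 lower (26 and 7 by gene, median 0.15), and 2 had an unadjusted p under 0.05 (4.082%, against 5.406% of all). KLRB1 had injured signals of 75.7, 152 and 166 and control signals of 61.0, 119.5 and 27.8 (1.08 ± 0.46, adjusted p = 0.885). Most of this came from dog 3, at 2.58 against 0.31 and 0.35, and the control piece of dog 3 was called Absent. CD79B, a signalling chain of the B cell receptor, was at 174, 86.0 and 198 against 182, 38.1 and 87.4 (0.77 ± 0.40, adjusted p = 0.934), and was lower in dog 1. Without the outlying arrays these differences were 0.81 for KLRB1 and 0.45 for CD79B. Probe sets without overlap were 2 of 49 against 6.25% of all: SH2D1A, lower, and the second FCMR probe set, higher.

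At the base dependent site, where 0% of all probe sets were called, 30 were higher and 19 lower with a median of 0.07 against 0.03 (by gene 21 and 12, median 0.07). An unadjusted p under 0.05 was found for 5 (10.204%, against 6.209% of all). Probe sets without overlap were 9 of 49 (18.367%), against 8.3% of all. CD8A, CD5, CD27 and FCMR were lower in the injured lung, and CD28, CTLA4 and CD69 higher. A dimmer probe set of SH2D1A and one of KLRD1 were also higher, but the brightest probe sets of those genes overlapped between the lungs. For CD28 the brightest probe set, Present on 12 arrays, did not overlap. Its further probe sets did, among them the one Present on all 24 arrays. T cell genes were thus on both sides.

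At the base nondependent site the direction was mostly lower, for lymphocyte genes and for all others. Of the 49 probe sets 20 were higher and 29 lower with a median of -0.08, and the median of all probe sets was also -0.08. By gene, on the brightest probe sets, 9 were higher and 24 lower with a median of -0.20. An unadjusted p under 0.05 was found for 5 probe sets, FCMR included (10.204%, against 8.406% of all). Probe sets without overlap were 5 of 49 against 11.5% of all, and all 5 were lower in the injured lung: CD8A, LCK, CD27, KLRB1 and FCMR. For LCK the injured arrays of dogs 2 and 3 were called Absent. The second probe sets of LCK and of FCMR overlapped between the lungs. KLRB1 stood at 43.8, 42.8 and 99.1 against 108.5, 160 and 103, a difference of -1.09 ± 0.46 (adjusted p = 0.491). Its sign was opposite to that at the apex nondependent site. Both base nondependent pieces of dog 1 were called Absent for KLRB1.

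Dependent and nondependent pieces were compared to ask whether lymphocyte transcripts followed gravity. Over both lungs and levels none of the 49 probe sets was called, against 0.00499% of all probe sets, and 5 had an unadjusted p under 0.05 (10.204%, against 3.779% of all). CD79A was 0.28 ± 0.12 higher in dependent pieces, CD3E 0.30 ± 0.13, CD6 0.35 ± 0.16 and CD3G 0.21 ± 0.12, each in 3 of 3 dogs with an adjusted p of 0.997. The CD6 value is that of its brightest probe set, and the further tested ones stood at -0.13 and -0.05. CD27 stood at -0.29 ± 0.17, with dog 1 on the other side (0.28). Of the T cell receptor genes and coreceptors 5 of 6 were higher in dependent pieces with a median of 0.14, while the median of all probe sets was 0.00.

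In the control lung alone, where 0% of all probe sets and none of the 49 were called, 3 had an unadjusted p under 0.05 (6.122%, against 4.787% of all). CD79A stood at 0.40 ± 0.16 (adjusted p = 0.99), with dependent pieces at 165 to 293 and nondependent pieces at 150 to 183. In the injured lung none of the 49 and 0% of all were called, and 2 had an unadjusted p under 0.05 (4.082%, against 5.271% of all). CD6, a scavenger receptor family protein of T cells, stood at 0.49 ± 0.23 and CD3E at 0.37 ± 0.18 (adjusted p = 0.918 for each), both in 3 of 3 dogs. The further CD6 probe sets stood at -0.18 and -0.10. For the injury difference in dependent minus that in nondependent parts, again 0% of all and none of the 49 were called, and 2 had an unadjusted p under 0.05 (4.082%, against 5.431% of all). There MS4A1 stood at 0.45 ± 0.25 (adjusted p = 0.856), in 3 of 3 dogs, beside CD69 above, and its other probe set at 0.07. In dog 3 the injured base dependent array is among the outlying ones and the injured base nondependent array is not. Signals on that pair were 294 against 177 for CD3E, 337.5 against 252 for CD6 and 423 against 240 for MS4A1. The same pair enters the comparison over both lungs.

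Base and apex were compared last. Over both lungs none of the 49 and 0% of all probe sets were called, and the 1 with an unadjusted p under 0.05 (2.041%, against 5.88% of all) was CD8A, the alpha chain of the coreceptor of cytotoxic T cells, at -0.48 ± 0.14 (adjusted p = 0.664). CD3G (0.24 ± 0.12), KLRD1, the NK receptor CD94 (0.42 ± 0.22), and CD5 (-0.20 ± 0.13) came next, with adjusted p from 0.85 to 0.866. In the control lung, with none of the 49 and 0% of all called and 2 with an unadjusted p under 0.05 (4.082%, against 5.156% of all), KLRD1 stood at 0.59 ± 0.31 (adjusted p = 0.945), of which dog 1 gave 1.36 and dog 3 0.04. Its further probe sets stood at 0.09 and 0.91 there.

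CD8A differed most within the injured lung. The 6 injured base pieces had signals of 43.5, 47.9 and 42.9 (dependent) and 45.3, 51.1 and 46.7 (nondependent) in dogs 1, 2 and 3. The 6 injured apex pieces had signals of 83.4, 84.8 and 75.8 (dependent) and 101, 80.7 and 85.6 (nondependent). No base piece reached any apex piece, in a group of 6 against 6, which held for 1 of the 49 probe sets and for 0.27% of all. The difference was -0.88 ± 0.19 (SE, limma adjusted p = 0.086), with a 95% interval, without adjustment, from -1.28 to -0.48. It was -1.05, -0.74 and -0.85 in dogs 1, 2 and 3. It missed the threshold that 0.0349% of all probe sets passed.

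In the control lung CD8A showed no such gap. Its base pieces were at 61.7, 80.4 and 60.3 (dependent) and 110, 63.4 and 51.2 (nondependent), its apex pieces at 68.5, 64.6 and 74.4 and at 81.4, 75.2 and 74.0. The difference was -0.08 ± 0.19 (adjusted p = 0.988), and 0 of the 49 probe sets, against 0.135% of all, were free of overlap between control base and apex. The injury difference at the base minus that at the apex was -0.80 ± 0.27 (adjusted p = 0.437). This test of the difference itself did not pass, and 0% of all probe sets passed it. CD8A was Present on 22 of 24 arrays and has 1 probe set, so no further one was available to set beside it.

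**Figure D5:**
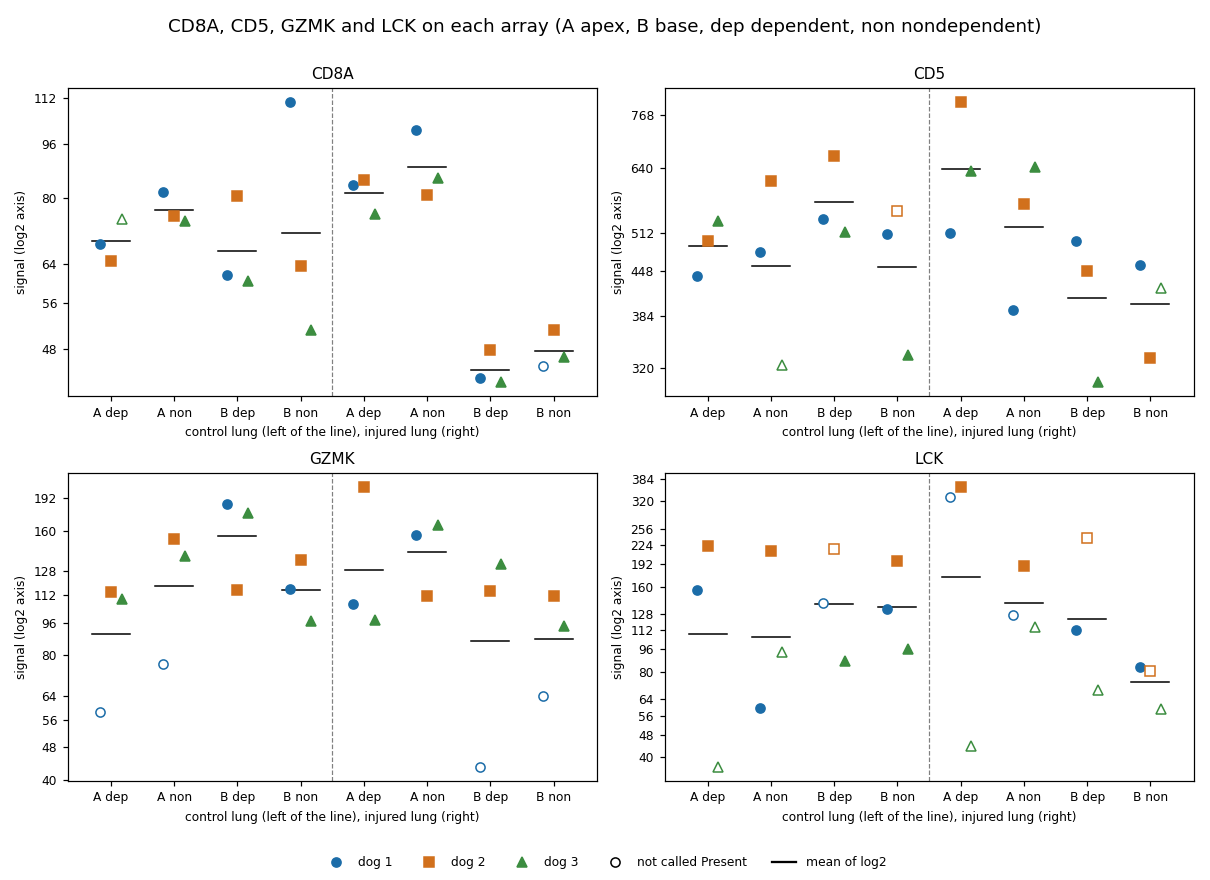
Signal (log2 axis) of CD8A, CD5, GZMK and LCK on each array by lung, level and position; an open point was not called Present and the bar is the mean of the log2 values. CD8A in the injured lung lies at 42.9 to 51.1 at the base and 75.8 to 101 at the apex, whereas the other 3 genes overlap.

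Most other lymphocyte genes in the injured base leaned the same way as CD8A but none was called. Of the 49 probe sets 15 were higher at the base and 34 lower, with a median of -0.13 against -0.07 for all (by gene 8 and 25, median -0.14), and 7 had an unadjusted p under 0.05 (14.286%, against 9.03% of all). CD5 stood at -0.51 ± 0.19 (adjusted p = 0.382) and was higher at the base in dog 1 (0.09). Also lower were GZMK, a granzyme of memory T cells (-0.63 ± 0.26, adjusted p = 0.455), LCK (-0.72 ± 0.33), and IL2RB, the beta chain of the IL-2 and IL-15 receptors (-0.37 ± 0.17). CD79A went the other way (0.36 ± 0.16). GZMK, LCK, IL2RB and CD79A are named after their values were seen. The second LCK probe set stood at -0.26.

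For the injury difference at the base minus that at the apex, none of the 49 was called and 7 had an unadjusted p under 0.05 (14.286%, against 8.261% of all). Cytotoxic genes were lower in 6 of 6 (median -0.42, from -1.01 to -0.18), receptors of cytokines and chemokines in 3 of 3 (median -0.42), and the median of all probe sets was -0.08. Between injured base and apex, 3' over 5' GAPDH differed by 1.34, 0.22 and -0.16 in dogs 1, 2 and 3. Summed signals of 14 other NK and cytotoxic genes were 1404 to 2035 at the injured base and 1694 to 1999 at the apex, and those of 12 leukocyte genes 1557 to 2606 and 1650 to 2423. By gene, the 14 were 3 higher and 11 lower at the injured base (median -0.19). Of 26 trafficking and cytokine genes, 5 were higher there and 21 lower (median -0.18). Transcription factors stood at 5 and 10, T cell receptor signalling genes at 7 and 10, B and plasma cell genes at 7 and 9. For the injury difference at the base minus the apex, NK and cytotoxic genes stood at 3 and 11, trafficking genes at 6 and 20. The rest stood at 5 and 10, 9 and 8, and 9 and 7, in that order. With RNA quality as covariates the CD8A difference was -0.81 (adjusted p = 0.396).

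Further genes of lymphocyte function, in 5 lists that share no gene with the 36, were not called in any of the 13 comparisons. For the mean of 4 sites, 9 of 17 genes of T cell receptor signalling were higher and 8 lower (median 0.00). FYN, a kinase related to LCK, stood at -0.39 ± 0.14 (adjusted p = 0.335), and NFATC1, a transcription factor that calcium signals activate, at -0.53 ± 0.20 (adjusted p = 0.363). Of 15 lymphocyte transcription factors 9 were higher (median 0.11), among them BCL11B, which T cell development needs (0.38 ± 0.14, adjusted p = 0.358), and IKZF3 of the Ikaros family (0.44 ± 0.17, adjusted p = 0.367).

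Of 14 further NK and cytotoxic genes 8 were higher (median 0.02), with interferon gamma (IFNG) at 0.24 ± 0.16 (adjusted p = 0.683). Of 16 further B and plasma cell genes 7 were higher (median -0.03), with the B cell adaptor BLNK at -0.44 ± 0.17 (adjusted p = 0.382). Of 26 trafficking and cytokine genes 15 were higher (median 0.05), with IL15, a growth factor of NK cells, at 0.51 ± 0.23 (adjusted p = 0.462).

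Marker lists of other cells were counted in the same comparison. In the endothelium list 1 of 12 genes was called, RAMP2, a partner of the adrenomedullin receptor, which fell by 0.98 ± 0.20 (adjusted p = 0.0434). No gene was called among 12 of leukocytes in general, 14 myeloid, 11 neutrophil, 9 alveolar type 2, 7 alveolar type 1, 13 smooth muscle and fibroblast, 6 red cell and platelet, 9 airway and 3 mesothelium genes. Summed leukocyte signals were 1602 to 2153 in the control and 1557 to 2606 in the injured lung.

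How the 33 genes varied together was described by the correlation of their log2 signals over 24 arrays, after the mean of each dog was taken out. The arrays share those dogs and sites, and no test was made. Over all pairs of the 33 genes the median was 0.08, against 0.01 for pairs of tested probe sets. CD3D, CD3E and CD3G, which form 1 complex, had 0.26 to 0.35 between them. TRBC1 had 0.57 with CD3E, but -0.18 with CD3D and -0.001 with CD3G. The 6 T cell receptor genes and coreceptors had a median of 0.03, from -0.34 to 0.57. GZMA with GZMB had 0.64, the second highest of all pairs after CCR7 with PRF1 (0.68), and CD8A with IL2RB had 0.62. The 6 B cell genes had a median of -0.03. Different probe sets of the same gene reached a median of 0.21 over 22 pairs of 10 genes, with 2 above 0.5 (a TRBC1 pair and the MS4A1 pair) and 6 below 0.

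Dogs differed in some genes more than lungs or sites did. The B cell receptor chain CD79B was at 131 to 233 in dog 1, 26.2 to 86.0 in dog 2 and 64.0 to 198 in dog 3. The ranges of dogs 1 and 2 did not overlap, as for 1 of the 49 probe sets and 2.91% of all. None of the 49 was free of overlap between dogs 1 and 3, against 3.19% of all, or between dogs 2 and 3, against 1.18%. The dog accounted for 67.6% of the variance of CD79B, 63.5% of that of CD7, 59.3% of that of MS4A1 and 52.0% of that of LCK. The order was not shared: mean log2 signals in dogs 1, 2 and 3 were 7.39, 5.77 and 6.74 for CD79B, 7.60, 8.25 and 8.35 for MS4A1 and 6.99, 7.65 and 6.13 for LCK. CD79B was Present on only 3 of 8 arrays of dog 1, where its signal was highest.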

How the data were processed

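RNA of dog lung was measured on 24 human Affymetrix arrays of 22283 probe sets. For each probe set the authors deposited a linear signal intensity with a detection call, as the files show. Which software made them is not given here. The 2% trimmed mean of each array's deposited intensity was 149.94 or 149.95, so the authors had scaled the arrays alike. The other deposited column, a detection p-value, was not used. Genes were named from the platform's annotation.

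From these values, 68 control and 11 never-called probe sets were left out, and the 20034 Present on at least 6 arrays were tested. Log2 intensities, with 3 zeros set to 0.1, entered limma 3.58.1 (R 4.3.3) with 8 groups and the dog as a block, empirical Bayes moderation (intensity trend), and a threshold of 0.05 on p-values adjusted by Benjamini-Hochberg over all 20034. The block follows the titles, which give 8 pieces per dog. The median correlation of array deviations was 0.236 between pieces of 1 dog and -0.136 across dogs. Pieces of a lung count as separate units, although a lung was lavaged whole. The number of dogs, 3, limits the precision. The procedure was tested on simulated data that held a dog effect but no effect shared by the pieces of 1 lung. The simulation therefore cannot check the fit for such sharing.

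Each gene stands on its brightest tested probe set. The text names every gene called, the 5 with the smallest p for comparisons over both lungs or all sites and the 2 with the smallest p for every other one, and a panel of lineage genes described by level. Genes outside this rule, such as those without overlap or in the sections on variation, were named after their values were seen. The genes, lists and rule were chosen with earlier results of these data known. Alternatives were no block, per-dog means, quantile normalization, other filters, an offset of 16, RNA quality covariates, and leaving out dogs or outlying arrays.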

Additional observations from a re-analysis of the deposited data

Results flagged for a closer look

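For 11 of the 33 genes (33.3%, against 19.2% of all tested probe sets) the injury difference had 1 sign in all 3 dogs at 1 site and the opposite sign in all 3 dogs at another, or base minus apex did so between the lungs. These differences between sites were not tested pair by pair, and neither the test of injury by position nor that of injury by level called any lymphocyte gene. CD8A stood at 0.23 and 0.21 at the apex dependent and nondependent sites and at -0.58 at each base site (-0.58 dependent and -0.58 nondependent). KLRB1 went from -0.69 at the apex dependent site to 1.08 at the apex nondependent site and -1.09 at the base nondependent site, and its base minus apex difference was 0.29 in the control and -0.40 in the injured lung. These KLRB1 values lean on few dogs and on Absent calls. At the apex dependent site injured signals were 48.8 (Absent), 106 and 136, against 157, 120 and 156. The dog 3 control at the apex nondependent site (27.8) and both dog 1 pieces at the base nondependent site were Absent. In dog 3 KLRB1 went only from 103 to 99.1 at the base nondependent site. Between the apex dependent and apex nondependent sites, LAT went from 0.46 to -0.24 and SH2D1A from 0.38 to -0.32. All these values are of brightest probe sets, and further ones did not always follow. The share of 33.3% likewise counts genes on their brightest probe sets, whereas the 19.2% counts every tested probe set, so their units differ. At the apex nondependent site 1 further SH2D1A probe set stood at 0.12. The other had injured signals of 90.7, 88.3 and 134 against control signals of 81.3, 62.8 and 97.6 in dogs 1, 2 and 3. Between the apex dependent and the base dependent site, CD5 went from 0.39 to -0.48 and GZMB from 0.47 to -0.37. Between the apex dependent and the base nondependent site, CD3D went from 0.23 to -0.34 and LCK from 0.68 to -0.89. The second LCK probe set was not lower throughout at the base nondependent site. Its injured signals there were 50.1, 34.3 and 35.3, and its control signals 35.2, 56.4 and 23.9, in dogs 1, 2 and 3. IL2RB stood at 0.15 at the apex nondependent and -0.34 at the base dependent site. Between the base dependent and base nondependent sites, KLRD1 went from 0.49 to -0.59 and MS4A1 from 0.33 to -0.44. The further KLRD1 probe sets were mixed at the base nondependent site. In dogs 1, 2 and 3, 1 had injured signals of 67.4, 41.0 and 65.0 against 31.4, 87.1 and 50.4. The other had 29.0, 46.5 and 52.8 against 67.6, 75.5 and 35.7.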

How the results depend on the processing

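Over 11 alternatives, all 385 values of the 35 named changes kept their sign, and all but 10 of 143 counts of called lymphocyte probe sets over 13 comparisons were unchanged. Those 10 concern FCMR. The 35 changes were named for a small p in these same arrays, so their kept signs are no independent check. In the main fit the count was 1 at the base nondependent site and 0 in every other comparison, which left little room for change. In the base nondependent part the count went from 1 to 0 with no replicate block (FCMR adjusted p = 0.214), on per-dog means, after quantile normalization, with no filter on Present calls, with RNA quality covariates and without the 3 outlying arrays of dog 3, and was 0 to 0 over the fits that each left out 1 dog. It stayed 1 when Present calls were required on at least 12 arrays (adjusted p = 0.0436) or 16 was added to each signal (0.0481), so the adjusted p ranged from 0.0436 to 0.705. For the mean of 4 sites the count went from 0 to 1 with RNA quality covariates (FCMR, -0.83, adjusted p = 0.037). The cause was not tested. The adjusted p of CD8A, injured base against apex, ranged from 0.0706 to 0.709. Over all probe sets the 42 calls for the mean of 4 sites became 6 with no replicate block, 6 on per-dog means, 3 without dog 1, 0 without dog 2 and 26 without dog 3. The 81 at the base nondependent site became 0 with no replicate block, 32 on per-dog means, 42 after quantile normalization, 9 with RNA quality covariates, 4 without dog 1, 0 without dog 2, 134 without dog 3 and 151 without the outlying arrays. The 7 for injured base against apex became 0 with no replicate block, on per-dog means, after quantile normalization, with RNA quality covariates and without dog 1 or dog 2, and 14 with 16 added to each signal, 102 without dog 3 and 59 without the outlying arrays. Signal over background limits the lymphocyte genes: 15 of 49 probe sets were Present on fewer than 18 of 24 arrays.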

Other observations

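The 9 probe sets of these genes that were never called Present still had signals, which the calls did not tell from background. That of NKG7, a granule protein of cytotoxic cells, ran from 255 to 964, and an untested one of CD4 ran from 342 to 1242. That of LAT ran from 37.0 to 470.5, that of CD7 from 63.5 to 630, that of ICOS from 52.7 to 176.5 and that of TRAT1 from 29.8 to 197.5. Untested ones of SH2D1A, CD6 and CD22 ran from 0.5 to 164.6, from 43.5 to 128.5 and from 2.1 to 92.9. None of these entered a comparison.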
